A study of Rattus norvegicus with 14 samples.

Results

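Genes typical of the leptomeninges, the thin membranes that cover the brain and line its fissures, were described in dentate gyrus RNA from 14 rats. The members are Ptgds, Slc6a20a, Igf2, Igfbp2, Col1a1, Col1a2, Col3a1, Aebp1, Gjb2 and Vim, 10 of the 10411 genes that the array annotation names by a single symbol. They were chosen by their large and shared variation between these same arrays, so that variation is given as a description, with no test. They have 16 probe sets (groups of short probes against one transcript), of which 13 passed a filter on low values, a mean of at least 4 on the log2 scale over all arrays. The other 3 are described too.

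All 14 animals were male Long-Evans rats, 3 to 4 months old, singly housed and trained earlier in a water maze (a pool with a platform on which a swimming rat can rest). Rats then swam 8 trials in a pool at a new site. For the 7 learning rats cues were present and the visible platform stayed in place, and for the 7 control rats the platform moved and useful cues were missing. A probe swim of 90 s came 1 h later, tissue was taken straight afterwards, and the RNA of each rat went onto 1 Affymetrix RAE230A array. The comparison asks which transcripts of the dentate gyrus differ after new spatial learning. Values are log2 expression values made by the authors with GCRMA, so 1 unit is a 2-fold difference.

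Leptomeningeal cells are fibroblast-like cells on the brain surface and along its larger vessels. They secrete prostaglandin D synthase and insulin-like growth factor 2 into the cerebrospinal fluid, build a matrix of fibrillar collagen, and are joined by gap junctions that contain the connexin encoded by Gjb2. In the hippocampus such membranes lie in the fissure beside the dentate gyrus, a structure otherwise known for its granule cells. The labels give no measure of how each dentate gyrus was dissected, so whether the amount of attached membrane differed between rats was not tested. In bulk tissue, fewer cells of a type and less RNA per cell cannot be told apart.

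Array medians lay between 5.09 and 5.12, and the number of arrays limits the precision. The 5 granule cell markers that passed the filter had a mean level between 8.98 and 9.52 on every array. As a sign of RNA quality, the excess of the 3' over the 5' control probe set for beta-actin lay between 1.21 and 1.47 on control arrays and between 1.27 and 1.58 on learning arrays. Its correlation with the mean of the members was 0.40 in control and 0.0058 in learning rats. The same measure correlated at -0.30 and 0.60 for GAPDH and at -0.22 and -0.12 for hexokinase. Its part in the results was not tested.

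On the brightest probe set of each gene, Igfbp2, Ptgds and Igf2 had the widest ranges. The second probe sets of Col1a2 and Slc6a20a, given below, had wider ones. Ptgds encodes a prostaglandin D synthase that is also a carrier protein of the cerebrospinal fluid. Its level was 8.87 at the lowest, 11.8 at the median and 13.4 at the highest control array. In learning rats the lowest, median and highest levels were 8.84, 9.37 and 12.9. The groups overlapped over nearly their whole range, and the highest array, control replicate 3, was 24.0-fold above the lowest, learning replicate 5. Among the 6697 genes measured above the filter, Ptgds had the largest standard deviation within groups, and the members as a whole took ranks between 1 and 24.

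The growth factor Igf2 and the binding protein Igfbp2, which carries insulin-like growth factors, followed. Igf2 had a lowest, median and highest level of 5.89, 7.10 and 9.89 in control rats and of 5.92, 6.49 and 9.83 in learning rats. Igfbp2 had 4.56, 7.15 and 8.98 in control rats and 4.26, 5.55 and 9.16 in learning rats. The highest array stood 16.0-fold above the lowest for Igf2 and 29.8-fold for Igfbp2. Slc6a20a encodes a transporter of proline and related amino acids, and varied less on its brightest probe set. It ran from 7.00 over a median of 7.59 to 9.01 in control rats, and from 6.79 over 7.23 to 8.88 in learning rats.

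Collagen I is a rod of chains encoded by Col1a1 and Col1a2, collagen III is made of Col3a1 chains, and Aebp1 encodes a secreted protein that binds collagen. Col1a1 had a lowest, median and highest level of 2.94, 3.50 and 5.87 in control rats and of 2.97, 3.36 and 6.54 in learning rats. For Col1a2 these levels were 3.79, 4.07 and 6.19 in control rats and 2.98, 3.94 and 5.65 in learning rats. Medians of these collagen genes thus lay near or under the filter level of 4, while a few arrays in each group stood well above it. Col3a1 showed the same shape, with 3.20, 3.36 and 5.36 in control rats and 2.61, 3.30 and 6.48 in learning rats. Col1a1 and Col3a1 were each below 4 on 8 of 14 arrays, and Col1a2 was on 5. Aebp1 had 4.59, 5.01 and 6.92 in control rats and 4.16, 4.89 and 6.74 in learning rats.

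The other members lie at the cell surface or in the cytoskeleton. Gjb2, the gene of a gap junction channel protein, ran from 5.46 over a median of 5.85 to 7.34 in control rats and from 5.09 over 5.80 to 6.85 in learning rats. Vim encodes vimentin, the intermediate filament of fibroblasts, endothelium and some glia. It ran from 7.40 over 8.65 to 9.62 in control rats and from 6.79 over 7.80 to 9.33 in learning rats. The highest array was 4.74-fold above the lowest for Gjb2, 7.15-fold for Vim and 4.67-fold for Slc6a20a. The median over all 6697 genes was 1.51-fold.

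**Figure D1:**
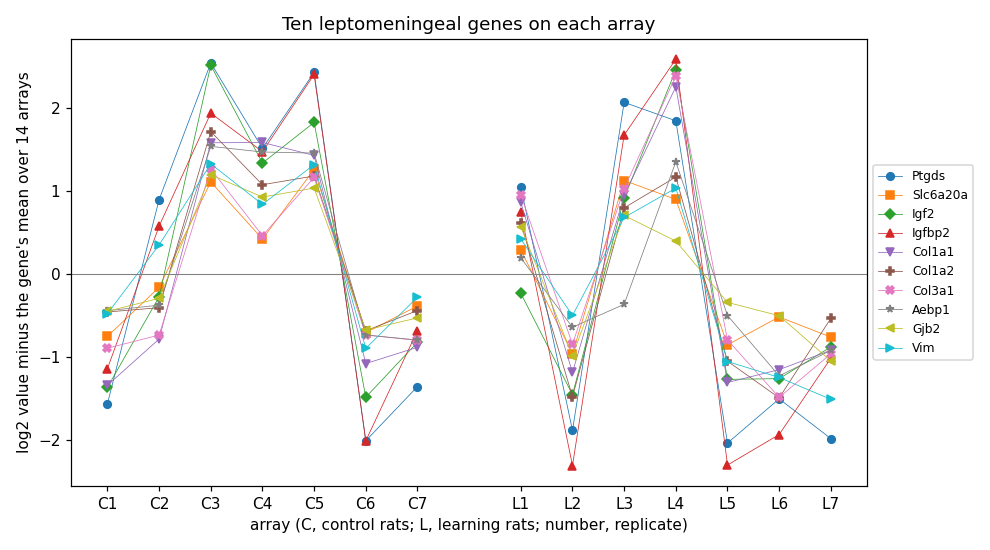
Level of each of the 10 genes (brightest probe set, log2, minus the gene's own mean over 14 arrays) on the 7 control and 7 learning arrays. Lines only join the points of one gene, since replicates have no order; control replicates 3, 4 and 5 and learning replicates 1, 3 and 4 are the highest of their group for every gene.

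The same rats ranked highest of their group for every member, though by little for Aebp1 in learning replicate 3. The choice of members by shared variation makes such agreement likely. In control rats the highest arrays were replicates 3, 4 and 5 for 10 of 10 members, and in learning rats they were replicates 1, 3 and 4 for 10 of 10. Of the other 6687 genes, 33 (0.493%) had these same 3 highest arrays in each group. The mean of the members was 8.20, 7.64 and 8.08 on control replicates 3, 4 and 5, and 7.07, 7.48 and 8.16 on learning replicates 1, 3 and 4. It was at most 6.40 on the other 4 control arrays, where replicate 2 was intermediate. It was between 5.29 and 5.47 on the other 4 learning arrays.

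Correlations between members are given as a description over 7 arrays. In control rats the 45 pairs of members had Pearson correlations from 0.88 (Igfbp2 with Col3a1) to 0.99, with a median of 0.96. In learning rats they ran from 0.64 (Aebp1 with Gjb2) to 0.99, with a median of 0.91. The arrays of each group fall apart into 4 low and 3 high ones, with a gap in the member mean from 6.40 to 7.64 in control and from 5.47 to 7.07 in learning rats. The correlations largely measure that gap. No side holds 6 arrays, so the relation within a side is not given. With ranks in place of levels the median was 0.86 in control and 0.75 in learning rats, where the order among the 4 low arrays differed between members.

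Each member was also set against the mean of the other 9. The correlation in control rats was highest for Igf2 (0.99) and lowest for Ptgds (0.96). In learning rats it was highest for Col1a1 (0.99) and lowest for Aebp1 (0.83). Without the 2 arrays of a group farthest from the median of the member mean, these correlations lay between 0.90 and 0.99 in control rats and between 0.81 and 0.99 in learning rats. Left out were control replicates 3 and 5 and learning replicates 3 and 4. Control replicate 4 and learning replicate 1 were then the only high arrays of their group. These correlations thus still largely measure the gap, and do not show how members relate without it.

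Members differed in how steeply they followed the rest. Per unit of the mean of the other 9, Ptgds changed by 1.67 log2 units in control rats and 1.58 in learning rats, and Igfbp2 by 1.40 and 1.73. Gjb2 changed by 0.66 and 0.49, and Slc6a20a by 0.65 in each group. Igf2 changed by 1.40 and 1.12 and Col1a1 by 1.12 and 1.16, and the other collagens and Aebp1 lay between 0.55 and 1.15 in either group. Ptgds and Igfbp2 were thus the steepest members in learning rats, and Gjb2 the shallowest.

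Some rats departed from the shared pattern. Aebp1 was at 5.02 in learning replicate 3, near its median, although Ptgds was at 12.9 there. After each gene was scaled by its own standard deviation, Aebp1 was lower there by a difference of -1.24 from the mean of the others, the largest departure of any member. Gjb2 was low for its array in learning replicate 4 (-0.86 on that scale) and Col3a1 was high there (0.84). Ptgds stood 0.70 above the other members on that scale in control replicate 2, at 11.8, where Col1a1 was at 3.50 and Col3a1 at 3.36. Control replicate 2 was also the array where Igfbp2 (0.53) and Col1a1 (-0.47) departed most, in opposite directions.

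Of the 10 members, 4 have more than 1 probe set, which allows a check on the same RNA. The second Slc6a20a probe set ran from 2.72 to 7.93, a 37.1-fold range against 4.67-fold on the brightest. It correlated with the brightest at 0.98 in control and 0.93 in learning rats. The second Col1a2 probe set, with a mean of 3.97 just under the filter, ran from 1.96 to 7.50, a 46.7-fold range against 9.25-fold on the brightest. Their correlation was 0.98 in control and 0.93 in learning rats. The second Col1a1 probe set ran only from 3.57 to 5.45, with correlations of 0.76 and 0.98. The same transcript thus showed folds that differed several times between probe sets, so a fold is a value of its probe set.

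Igf2 was the exception among these genes. Its brightest probe set followed the other members, while the next brightest lay between 4.26 and 4.77 on all arrays and correlated with it at -0.42 in control and -0.56 in learning rats. The remaining 2 probe sets were flat at 1.32 and 0.71 on average and below 4 on all 14 arrays. The probe sets that did not follow are annotated to another Igf2 sequence record than the brightest. Every statement on Igf2 levels here therefore rests on 1 of its 4 probe sets.

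**Figure D2:**
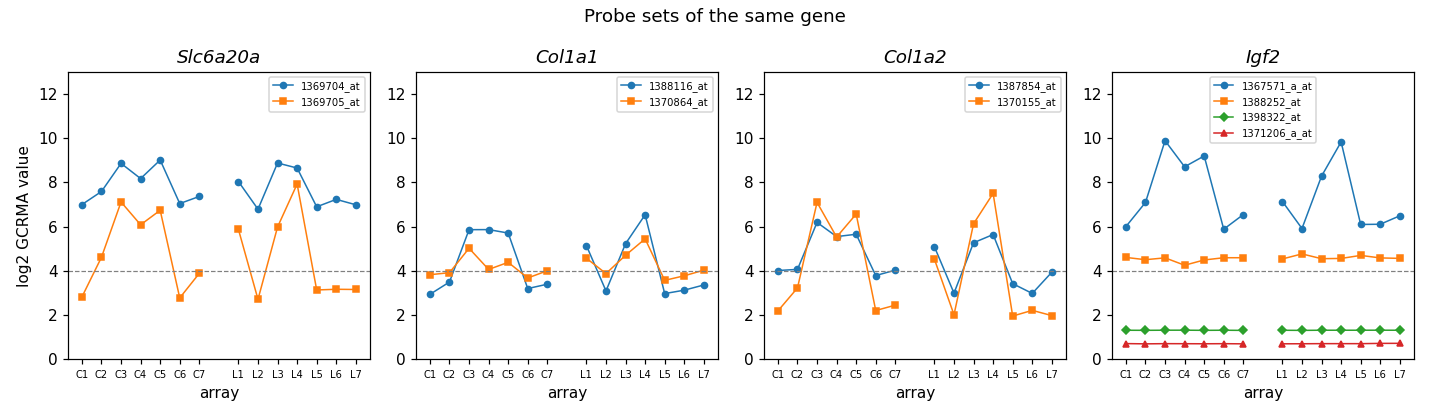
Log2 value on each array for all probe sets of Slc6a20a, Col1a1, Col1a2 and Igf2; the dashed line marks the filter level of 4. Probe sets of the first 3 genes largely rise and fall on the same arrays over different ranges, while 3 of the 4 Igf2 probe sets are flat. In control replicate 4 the brightest Col1a1 probe set is at 5.87, but the second is at 4.07, near its control median of 4.01.

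Promoters are shown for 4 members that vary together, to set beside that shared variation. They are Ptgds and Igfbp2, the widest-ranging on their brightest probe sets, and a collagen and a filament gene. RefSeq (build GRCr8) start sites were matched for 8 of the 10 members; Col1a1 and Col3a1 had no match. Each sequence is the 250 bases before the annotated start, 5′ to 3′ on the gene's strand. Capitals mark matches, on either strand, to any of 3 promoter motifs. The motif TATAAA is the core of the box that positions transcription starts. The motif CCAAT reads ATTGG when it lies on the opposite strand. The motif GGGCGG is the GC box, which reads CCGCCC when it lies on the opposite strand. The regions are chr3:28682979-28683228 (minus strand) for Ptgds, chr9:81864561-81864810 (plus) for Igfbp2, chr4:33518307-33518556 (plus) for Col1a2 and chr17:81577011-81577260 (plus) for Vim.
Ptgds: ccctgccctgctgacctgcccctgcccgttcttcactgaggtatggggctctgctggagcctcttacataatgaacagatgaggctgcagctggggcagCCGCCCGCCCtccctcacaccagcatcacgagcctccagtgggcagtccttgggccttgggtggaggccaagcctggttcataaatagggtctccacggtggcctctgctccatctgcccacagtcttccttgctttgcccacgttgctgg
Igfbp2: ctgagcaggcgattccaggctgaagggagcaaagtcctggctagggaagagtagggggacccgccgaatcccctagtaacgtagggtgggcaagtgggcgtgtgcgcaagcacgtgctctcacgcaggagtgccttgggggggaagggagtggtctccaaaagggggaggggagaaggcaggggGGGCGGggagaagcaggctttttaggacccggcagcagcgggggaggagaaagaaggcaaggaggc
Col1a2: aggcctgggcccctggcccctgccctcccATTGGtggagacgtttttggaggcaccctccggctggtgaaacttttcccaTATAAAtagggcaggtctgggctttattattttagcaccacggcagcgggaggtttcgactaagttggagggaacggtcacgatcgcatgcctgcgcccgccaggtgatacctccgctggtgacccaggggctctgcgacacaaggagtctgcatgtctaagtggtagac
Vim: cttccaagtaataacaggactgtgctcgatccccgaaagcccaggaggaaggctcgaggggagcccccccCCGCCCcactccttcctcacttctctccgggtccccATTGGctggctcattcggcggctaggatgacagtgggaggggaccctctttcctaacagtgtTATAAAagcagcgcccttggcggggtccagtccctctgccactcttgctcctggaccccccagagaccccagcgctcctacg

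Col1a2 and Vim each held 1 TATAAA (starting at -170 and -82 from the annotated start) and 1 CCAAT, Vim also held 1 GGGCGG, and Ptgds and Igfbp2 held GGGCGG alone, 2 times and 1 time. Of 33469 rat promoters of this length, 12.9% held TATAAA, 34.0% CCAAT and 30.5% GGGCGG on either strand. Over the 8 members with a promoter, 6 held GGGCGG (all but Col1a2 and Slc6a20a; Igf2 only at the second of its start sites), 2 held TATAAA and 2 CCAAT. Their windows had a GC content from 49.2% to 70.8%, against a median of 51.2% over all promoters. A match is only a match of letters and says nothing of binding.

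Genes next to the members on the chromosome were looked up in the RefSeq gene order. Of 20 neighbours annotated as protein-coding, 9 were measured above the filter and 0 of these correlated above 0.8 with the member mean in each group. Gjb6, another connexin gene, which lies beside Gjb2, came closest, with correlations of 0.93 in control and 0.65 in learning rats over a range of 1.36 log2 units. Igfbp5, the neighbour of Igfbp2, had 0.27 and 0.18, and Col5a2, the neighbour of Col3a1, had 0.02 and 0.73. These 3 were singled out after their values were seen.

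The members' label was checked against 25 other leptomeningeal markers. Of the 22 on the array, 6 passed the filter, and 10 were below 4 on all 14 arrays. These 10 include the transcription factor genes Foxc1, Foxc2 and Zic1. For the 6, the median correlation with the member mean was 0.86 in control and 0.84 in learning rats, against -0.02 and -0.03 over all 6697 genes. Mgp, an inhibitor of calcification in matrix, had correlations of 0.94 and 0.86, Aldh1a2, a retinoic acid synthase of the meninges, 0.84 and 0.88, and the signal protein gene Bmp6 0.88 and 0.90. The matrix proteoglycan genes Dcn and Ogn had 0.82 and 0.79, and 0.80 and 0.82. Dcn was below 4 on 4 of 14 arrays and Ogn on 8, so each passed the filter through its higher arrays. Fbln1, a fibulin, followed in control rats (0.98) and much less in learning rats (0.30). Below the filter, 4 of 16 markers still correlated above 0.8 in each group: Lum, Bgn, Slc13a4 and Fmod, with maxima between 4.65 and 5.11. Lum was below 4 on 10 of 14 arrays, Bgn on 13, Slc13a4 on 11 and Fmod on 9, so their correlations rest on few arrays. Other markers below the filter were opposite in control rats: Foxc2 had -0.80 and -0.03, Cyp1b1 -0.36 and 0.52 and Bmp7 -0.42 and 0.88. Each of these was below 4 on all 14 arrays. Correlations above 0.7 in each group were held by 11 of all 22 markers. These 22 include the 16 below the filter, for which no share over all genes is given. Above the filter such correlations were held by 5 of the 6, against 0.882% of the non-member genes that passed it.

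Across all genes, 31 others (0.464%) correlated above 0.8 with the member mean in each group, and 3 below -0.8. The gene most like it was Colec12, a collectin scavenger receptor, with correlations of 0.96 in control and 0.97 in learning rats. Ccn2, a matricellular growth factor, had 0.95 in each. Myl9, a myosin light chain of smooth muscle, had 0.91 and 0.93, and Lgals1, galectin-1, 0.94 and 0.90. The endocytic adaptor Dab2 had 0.98 and 0.90, and the dicarboxylate transporter Slc13a3 0.93 and 0.90.

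Anxa2 and S100a10, whose products form a complex at membranes, had correlations of 0.99 and 0.89, and of 0.92 and 0.89. Ifitm3, an interferon-induced membrane protein, had 0.96 and 0.89 and the widest range of the 12 genes most alike, 7.67-fold. Cd74, the invariant chain of antigen-presenting cells, had 0.95 and 0.88, and Adgra2, an adhesion receptor, 0.95 and 0.88. Bmp6 is also among the 12. Without the 2 farthest arrays of each group its correlations were 0.61 and 0.55, and those of Anxa2 were 0.98 and 0.63. All 12 shared the members' 3 highest arrays in each group, and the choice of genes by likeness makes such agreement likely.

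The 6 genes most opposite to the members had ranges from 0.30 (Stard3nl) to 1.05 (Adam23) log2 units. Stard3nl, a protein of endosomal membranes, had correlations of -0.89 and -0.90. Sppl3, an intramembrane protease, had -0.89 and -0.85, Adam23, a neuronal adhesion protein, -0.84 and -0.94, and Cdk8, a kinase of the Mediator complex, -0.83 and -0.79. Cdk5r1, the activator of a neuronal kinase, had -0.78 in each group, and the mitochondrial carrier Slc25a27 -0.77 and -0.79. Without the 2 farthest arrays of each group, Cdk5r1 had -0.12 and Slc25a27 -0.41 in learning rats.

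**Figure D3:**
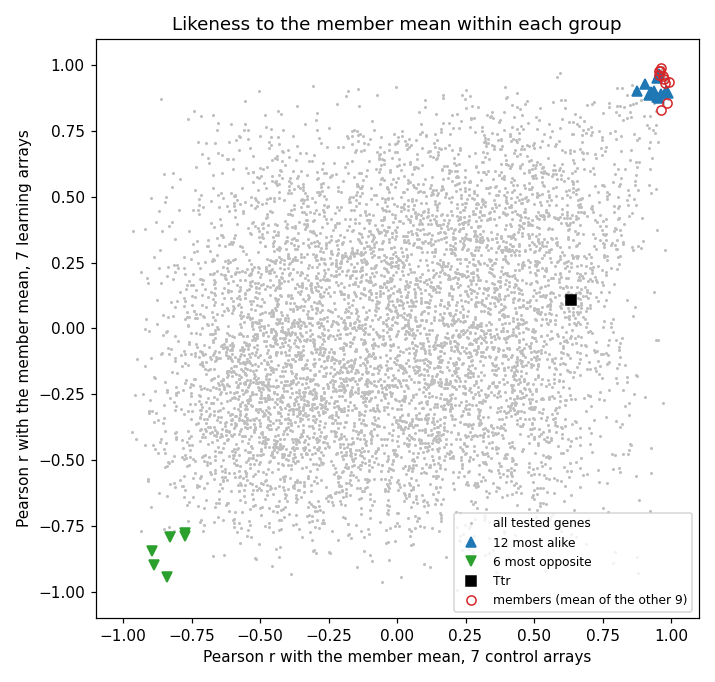
Pearson correlation with the mean of the 10 members over the 7 control arrays (x axis) and over the 7 learning arrays (y axis); each dot is 1 of 6697 genes. Members, set against the mean of the other 9, and the 12 most alike genes lie in the upper right corner, Ttr at 0.64 and 0.11.

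Markers of other cell types were set beside the members, with their part in the members' variation not tested. The 8 endothelial markers measured had median correlations of 0.52 in control and 0.54 in learning rats, and their list mean, between 7.09 and 7.41 on control and 7.17 and 7.42 on learning arrays, correlated at 0.88 and 0.94. The 5 mural cell markers had 0.60 and 0.68, with a wider list mean, from 5.32 to 6.25 and from 5.18 to 6.23, that correlated at 0.76 and 0.94. The list mean of 10 astrocyte markers correlated at 0.83 and 0.61 (medians 0.49 and 0.22), and that of 8 microglial markers at 0.52 and 0.88 (medians 0.30 and 0.22). Medians were -0.0023 and -0.02 for 9 oligodendrocyte markers. They were -0.32 and -0.20 for 5 granule cell, 0.17 and -0.24 for 6 CA1, 0.16 and -0.38 for 6 CA3 and 0.10 and -0.25 for 5 interneuron markers.

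The 3 blood markers had medians of -0.38 and 0.07, with a list mean that correlated at 0.08 and 0.66. The single ependymal marker had -0.51 and -0.08. Of 12 choroid plexus markers on the array, 7 were below 4 on all arrays, and the 5 measured had medians of -0.51 and -0.19. Their list mean had the opposite sign in control rats, with correlations of 0.62 and -0.35. Ttr, the transthyretin gene of the choroid plexus, was high in control replicates 3 and 5 (8.68 and 8.45), as the members were. It was also high in control replicate 7 (8.23), where the member mean was 5.83, and lay between 5.52 and 5.92 in all learning rats, in which the member mean ran from 5.29 to 8.16.

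**Figure D4:**
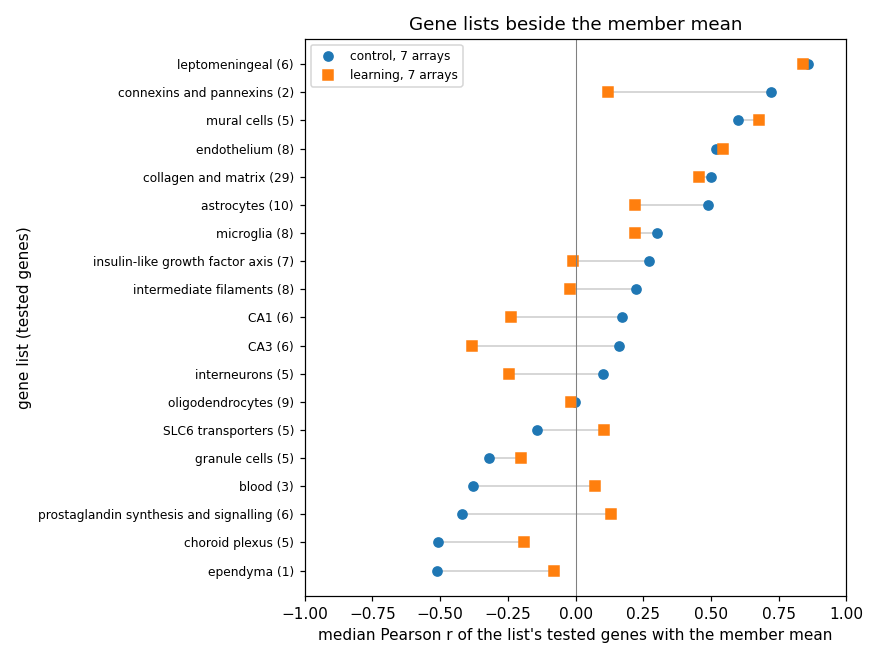
Median Pearson correlation with the member mean for the measured genes of 19 lists (number in brackets), over 7 control arrays (circles) and 7 learning arrays (squares). Leptomeningeal markers that are no members have the highest median in each group. Their list mean correlated at 0.95 in control and 0.93 in learning rats, beside 0.95 in each for collagen and matrix genes. In learning rats the list means of mural cell and endothelial markers each had 0.94.

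Other genes of the members' pathways were set beside them in the same way. Of 29 measured collagen and matrix genes, 3 correlated above 0.8 in each group, namely Lgals1, the collagen chaperone gene Serpinh1 and the integrin gene Itgb1, and the medians were 0.50 and 0.46. The mean of the 29 spanned only 6.08 to 6.39 over the 14 arrays and correlated at 0.95 in each group. The matrix protein gene Sparc had 0.75 and 0.73, and the collagen-modifying enzyme genes P4hb and P4ha1 had 0.16 and 0.39, and 0.40 and -0.27. Of 7 genes of the insulin-like growth factor axis, none passed 0.8, with medians of 0.27 and -0.01. The serine protease gene Htra1 had 0.27 and 0.11, Igfbp7 0.07 and 0.61 and the adaptor gene Irs2 0.43 and -0.45.

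Medians were -0.42 and 0.13 for 6 genes of prostaglandin synthesis and signalling, where the cyclooxygenase gene Ptgs2 had -0.46 and 0.21, and the prostaglandin E synthase genes Ptges2 and Ptges3 had -0.63 and 0.20, and -0.37 and -0.02. They were 0.22 and -0.02 for 8 intermediate filament genes, with the astrocyte filament gene Gfap at 0.24 and 0.45 and the neurofilament genes Nefl at 0.33 and 0.30 and Nefm at 0.39 and -0.19. They were -0.14 and 0.11 for 5 SLC6 transporter genes. The creatine transporter gene Slc6a8 had -0.14 in control and 0.91 in learning rats, Slc6a6 -0.32 and 0.63, and Slc6a15 0.15 and -0.39. Of the 2 measured connexin and pannexin genes, Gja1, the main connexin gene of astrocytes, had 0.52 and -0.41, beside Gjb6 above. Across these 6 lists, 3 of 57 measured genes passed 0.8 in each group, all of them from the collagen and matrix list. Among all genes that are no members, these 57 included, 0.464% did.

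The group difference was fitted over all probe sets with limma. No member probe set passed an adjusted p of 0.05 (0 of 13), where 0 of 9387 did over the whole array (0%). At an unadjusted p below 0.05 the count was 0 of 13 against 1230 of 9387 (13.1%). In 0 of 13 did the groups separate without overlap, against 0.405% of all probe sets. Adjusted p values of members in limma lay between 0.544 and 0.963.

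The differences had wide confidence intervals. The mean of Igfbp2 over control arrays was 6.94 ± 1.68 (SD, n = 7), and over learning arrays it was 6.21 ± 2.02 (SD, n = 7). The groups thus differed by -0.73, with 95% confidence limits of -2.61 and 1.15. For Ptgds the means were 11.2 ± 1.96 and 10.5 ± 1.91, which differ by -0.70 (limits -2.66 and 1.26). These intervals reach from differences of over 2 log2 units downwards to over 1 upwards, so the data do not show that the groups are alike. The standard error was 0.54 for the median member and 0.08 for the median gene.

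Vim had the smallest p of the brightest probe sets (limma adjusted p = 0.567), with 8.61 ± 0.89 in control and 7.99 ± 1.02 in learning rats and a difference of -0.62 (-1.59 to 0.35). The other differences were -0.60 for Aebp1 (-1.61 to 0.41), -0.57 for Col1a2 (-1.65 to 0.51), -0.49 for Igf2 (-2.05 to 1.07) and -0.35 for Gjb2 (-1.14 to 0.45). They were -0.22 for Slc6a20a (-1.09 to 0.64), -0.14 for Col1a1 (-1.56 to 1.27) and 0.08 for Col3a1 (-1.16 to 1.31). In all, 9 of 10 members had a lower mean in learning rats, with a median of -0.53, against 49.4% of all genes and a median of 0.0018. Since the same 3 rats per group set the level of every member, these 9 are not independent of each other. The second Col1a1 probe set differed by 0.15, opposite to the brightest. With values below 4 set to 4, the differences were -0.22 for Col1a2, -0.08 for Col1a1 and 0.21 for Col3a1. With array weights they were -1.08 for Ptgds, -0.80 for Igf2, -0.39 for Slc6a20a, -0.35 for Col1a1 and -0.15 for Col3a1.

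The size of these differences moved with single rats. Over the 14 fits that left out 1 array, the median over members lay between -0.83 (without learning replicate 4) and -0.25 (without control replicate 3). It was -0.29 without control replicate 5, -0.33 without learning replicate 2 and -0.34 without learning replicate 6. The sign of Col1a1 turned in 6 of these 14 fits, over a range from -0.53 to 0.11, and that of Col3a1 in 7, from -0.31 to 0.33.

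**Figure D5:**
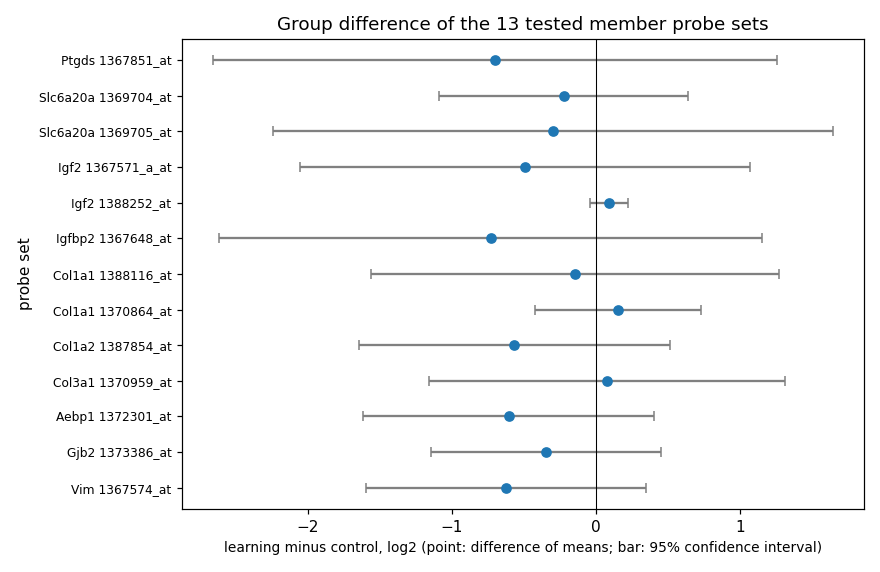
Difference of group means, learning minus control, in log2 units for the 13 member probe sets that passed the filter; points are limma estimates and bars 95% confidence intervals, with 7 arrays per group. Every interval crosses 0, and the narrow one belongs to the flat second Igf2 probe set.

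No gene of the 6 pathway lists passed the threshold in either direction: 0 of 29 matrix, 0 of 7 growth factor axis, 0 of 6 prostaglandin, 0 of 2 connexin and pannexin, 0 of 8 intermediate filament and 0 of 5 SLC6 genes. Median differences were -0.02, -0.08, -0.03, -0.14, 0.06 and -0.0022 in that order. The genes of smallest p were the metalloproteinase inhibitor Timp2 at -0.44 ± 0.13 (SE) and the procollagen protease Bmp1 at 0.20 ± 0.09 (SE). In the other lists they were the receptor Igf2r at 0.34 and Irs2 at -0.10, Ptges3 at -0.12 and Ptges2 at 0.08, and Gjb6 at -0.24 and Gja1 at -0.03. For filaments and transporters they were Nefh at 0.14 and Nefm at 0.13, and Slc6a6 at -0.09 and Slc6a15 at 0.10. All 8 measured genes of the intermediate filament list had a higher mean in learning rats, where 50.6% of all genes did. They did so by little: the list median was 0.06 and Nefl differed by 0.0016. The list leaves out the member Vim, which went the other way, with a difference of -0.62.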

How the data were processed

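RNA of the dentate gyrus of 14 rats was measured on Affymetrix RAE230A arrays, 1 per rat. The deposited values are on a log2 scale and come from GCRMA, which the submitters' processing notes name; no version or setting is given in the sources used here. Of 15923 probe sets, 57 control probe sets were left out of the tests; 12783 of the others had a single gene symbol in the platform annotation, 312 several and 2771 none.

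The labels call the samples biological replicates and name no batch or scan. The members, gene lists and tests were chosen with earlier results of these data known. The 9387 probe sets whose mean over 14 arrays reached 4 were fitted with limma 3.58.1 in R 4.3.3 (lmFit and eBayes, learning minus control), with Benjamini-Hochberg adjustment over all of them and a threshold of 0.05. The fit was tested on simulated data in which probe sets varied independently, as the members here do not. For each gene the brightest probe set (highest mean) was used, and the member mean averaged 10 such probe sets; each member was set against the mean of the other 9. Correlations were taken within each group of 7 arrays and carry no p.

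Named beside the members were the 12 genes with the highest lower of the 2 correlations, the 6 most opposite, and from each pathway list the 3 genes of highest mean and the 2 of smallest p. The rule also named the 2 brightest genes of each marker list; for lists other than the leptomeningeal one only list values are given, and all 6 leptomeningeal markers that passed the filter are named. Alternatives were the filter, quantile normalization, median centring, the eBayes prior, array weights, a floor at 4, the replicate number as a block, rank correlations, all probe sets of a gene and leaving out each array.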

Additional observations from a re-analysis of the deposited data

Results flagged for a closer look

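Of 122 sets of 7 arrays (a named gene or member probe set in a group), 11 held an array whose gap to its nearest neighbour exceeded 0.568 of the range, Dixon's 95% critical value; chance gives about 1 in 20. Among members, both cases were flat Igf2 probe sets: the second brightest was lowest in control replicate 4 (4.26) and the third in learning replicate 2 (1.31). Learning replicate 4, the learning array with the highest member mean, was highest for Slc13a3 (5.49) and Ogn (6.02) and lowest for Gja1 (12.7). Fbln1 was lowest in learning replicate 7 (3.98). Bmp1 was lowest in control replicate 5 (5.54) and highest in learning replicate 3 (6.49). Ptges2 was lowest in control replicate 3 (8.67), Ptgs2 in learning replicate 5 (7.51) and Nefl in control replicate 1 (12.1). The cause of these values was not tested.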

How the results depend on the processing

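No probe set on the array and no member passed the threshold in the limma fit under array weights, a floor at 4, no filter, a filter at 6, a trended robust prior, quantile normalization, centring on the median or, added after seeing the data, the member mean as a covariate. At an unadjusted p below 0.05 the count was 1230 of 9387. With the replicate number as a block, 0 were called as well. Deviations of same-numbered arrays correlated from -0.28 to 0.26, over 0.1 in 4 of 7 pairs, and 4 of 7 matched their own number best, a hint from the data; not every pair was over 0.1, so the numbers were not taken as pairing. Leaving out 1 array gave 0 to 1 called probe sets (1 without control replicate 6, learning replicate 1 or learning replicate 4) and 0 member probe sets. The median difference over members lay between -0.83 and -0.25. Rank correlation moved the median over member pairs to 0.86 in control and 0.75 in learning rats; without 1 array the Pearson median lay between 0.95 and 0.97 and between 0.90 and 0.92. Col3a1 turned to -0.15 with array weights. Without 1 array, signs turned for the second Slc6a20a probe set (-0.86 to 0.078), the brightest Col1a1 probe set (-0.53 to 0.11), the second (-0.040 to 0.30), Col3a1 (-0.31 to 0.33) and Gja1 (-0.055 to 0.0034). Levels near or under 4 limit what the collagen probe sets can show.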
